A study of Mus with 2 samples.

Results

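Protein kinase C is a family of serine/threonine kinases, and 8 of its genes were examined, Prkca, Prkcb, Prkcd, Prkce, Prkch, Prkcq, Prkci and Prkcz. These members were listed by family name, but with earlier results of these data known. The array carried 13 probes for them out of 26445 probes with a gene name, and 6 of the 8 genes were measured, against 13532 of the 20060 genes with a probe. A gene was counted as measured when at least 1 of its probes was well above background on at least 1 array.

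Protein kinase C enzymes phosphorylate proteins after lipid signals reach the membrane. Receptors activate phospholipases that release diacylglycerol and raise calcium. The conventional enzymes respond to both signals, the calcium-independent enzymes to diacylglycerol alone, and the atypical enzymes to neither. In macrophages the family is known for roles in the oxidative burst, in cytokine production and in adhesion.

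The cells were bone marrow-derived macrophages (BMDMs) from male C57BL6/J mice, grown for 7 d with 10 ng/mL of M-CSF and then kept under M2 conditions, that is, with 10 ng/mL of IL-4 for 24 hr. The DMSO group received the vehicle, and the GW4064 group received 10 µM of GW4064, a synthetic agonist of the bile acid receptor FXR, dissolved in DMSO and present during the same 24 hr. Both groups thus received IL-4, and neither shows protein kinase C in macrophages without it. Each group was 1 sample on 1 Agilent 1-colour array, and the number of animals behind a sample is not given in the sources used here. The free-text description of the GW4064 sample repeats the wording of the DMSO sample, so its group was taken from its treatment label and its title.

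With 1 array per group there was no replicate error and no test, and every difference below compares these arrays rather than the treatments. Differences are log2 of the processed signal on the GW4064 array minus log2 on the DMSO array, after each array was set to its 75th percentile. Probes printed several times on the array gave a yardstick of technical scatter. Over 234 such probes the median SD of the log2 difference between copies was 0.0766, rising to 0.178 for the 21 probes with a signal below 100. Both arrays were on the same slide, which carried 577 spots that differed 8-fold or more, many of them close together. For each member the number of such spots within 300 µm was therefore counted.

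The cells carried macrophage RNA on both arrays. All 8 macrophage markers with a probe were measured, and their differences lay between -0.34 and 0.13. All 6 IL-4 response genes were measured, with a median of 0.14. Arg1 was higher by 3.82, Retnla by 0.91, Ccl24 by 0.21 and Chil3 by 0.066 on the log2 scale, while Cd209d had -0.026 and Mrc1 -0.34. Markers of other cells moved as well. All 6 measured stromal cell markers were lower, by -0.99 to -0.58, and their summed signal was 25386 with DMSO and 14173 with GW4064, with Lum not well above background on either. Of the 7 measured neutrophil markers 6 were lower, the range was -0.94 to 0.020, and the summed signal was 14114 and 9301. Of the 6 platelet and megakaryocyte markers 5 were lower, between -1.66 and -0.12 with bounds for Itga2b, Gp9 and Gp1ba, while Pf4 was higher by 0.26. These bounds were counted only through the DMSO signal and could not have come out higher. The summed signal was 25223 and 31097, nearly all of it from Pf4. Of the natural killer cell markers 3 of 5 were measured, from -2.06 to 0.37 with sums of 336 and 269, and Ncr1 was not well above background. The lowest was Klrb1c, a bound in part, with probes at -3.60 and -0.53. Of the mast cell markers 2 of 5 were measured, at -0.91 and 0.51 with sums of 117 and 139, and Cpa3 and Fcer1a were not well above background. Of the dendritic cell markers 4 of 5 were measured, from -0.60 to at least 2.31 (Flt3, with 3 nearby spots with 8-fold differences). Flt3 was counted only through its GW4064 signal and could not have come out lower. The dendritic cell sums were 186661 and 159265, nearly all of it from Itgax, which macrophages also express, and Xcr1 was not well above background. Of these markers, Adgre1, Csf1r, Cd209d, Col1a1, Ltf, Klrb1c, Zbtb46 and Itgax also had a probe with 2 or more nearby spots with 8-fold differences. In bulk RNA, fewer cells of a type and less RNA per cell cannot be told apart, and the part of these cells in the results below was not tested.

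Within the family the GW4064 array differed from the DMSO array mainly at Prkcb, which was 1.51-fold higher. Prkch was 1.26-fold lower. The other 4 measured genes had log2 differences between -0.12 and 0.065. In all, 3 members were higher (Prkca, Prkcb and Prkcd) and 3 were lower (Prkch, Prkci and Prkcz), where 51.6% of all measured genes were higher and 48.2% were lower. The signs of Prkca, Prkcd and Prkcz changed with the processing, so this split holds only for the setting used. Of the 6 differences, 3 were smaller than the median scatter between copies of a probe, 0.0766 over all such probes. Prkcz, a dim gene, was also within the scatter of 0.178 for probes with a signal below 100. The number of members 1.5-fold or more higher was 1, beside 4.39% of all genes, and 0 members were 1.5-fold or more lower, beside 5.56%. At 2-fold or more, 0 members were higher, beside 2.04% of all genes, and 0 were lower, beside 2.71%. The median difference was -0.014 over the 6 members and 0.0068 over all genes, and the median size of the difference without its sign was 0.0902 and 0.125.

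**Figure D1:**
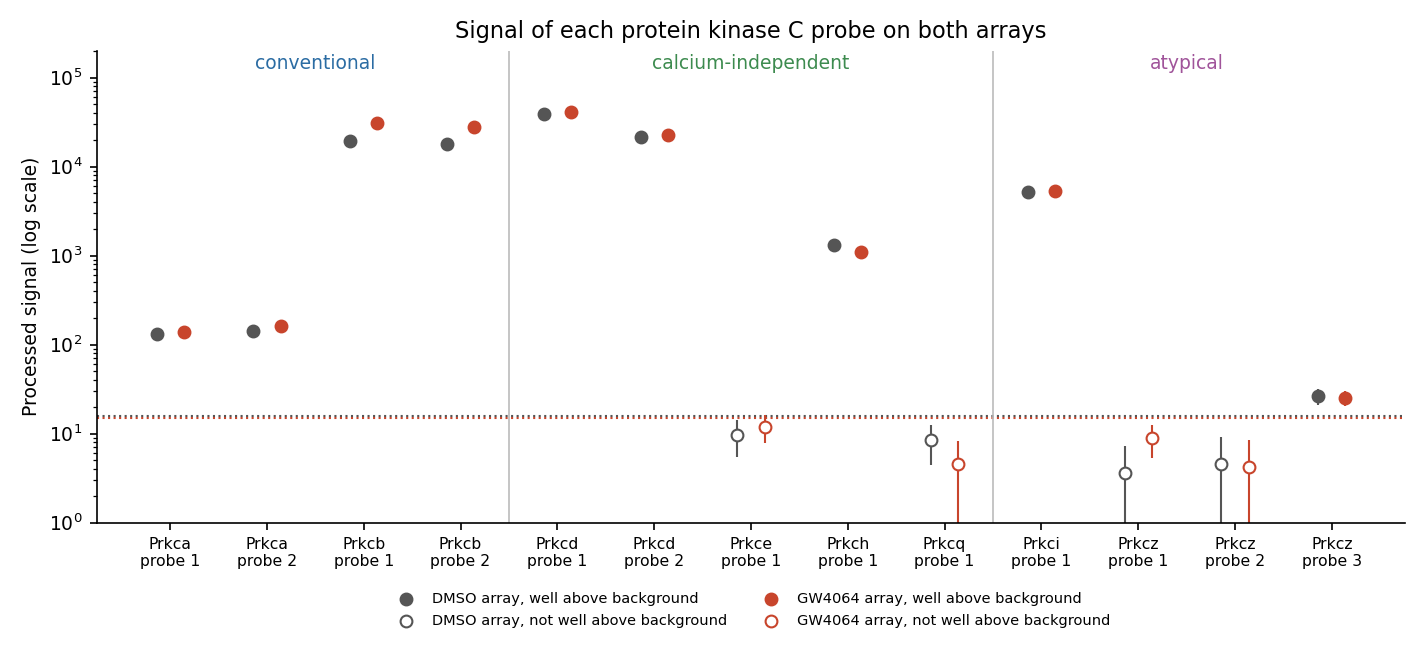
Processed signal (log scale) of each of the 13 protein kinase C probes on the DMSO array (grey) and the GW4064 array (red), grouped by class, with the error that the scanner software estimated for each spot as bars, cut off at a signal of 1. Filled points were well above background, open points were not, and the dotted lines at 15.7 and 15.1 mark the lowest signal well above background on either array. Both Prkcb probes sit higher on the GW4064 array, while Prkce, Prkcq and 2 Prkcz probes lie under the dotted lines.

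Prkcb encodes protein kinase C beta, a conventional enzyme known for coupling antigen receptors to NF-κB in B cells and for its part in myeloid cells. It was measured by 2 probes matched to the same transcript, NM_008855. Probe A_55_P1976278 had a signal of 19559 with DMSO and 30691 with GW4064. Probe A_65_P20249 had 17738 and 28116. Both probes were thus brighter on the GW4064 array, by 0.58 and 0.60 on the log2 scale, and the gap of 0.0146 between them was narrower than the median gap of 0.104 over 2711 genes with 2 measured probes. The error that the scanner software estimated was 0.204 for each difference. It is an estimate for single spots and holds no difference between cultures. The folds of the single probes were 1.499 and 1.515, so Prkcb sat at the edge of the 1.5-fold mark. It reached that mark under 6 of 12 processing settings and stayed under it in the other 6, with log2 differences of 0.40 to 0.58 in the latter. Apart from the deposited log2 table, the settings that reached the mark gave 1 and the same value, since other filters could not change these probes.

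In rank, Prkcb was number 586 of 13532 genes from the highest, and 4.33% of genes had a difference as high or higher. Differences spread more widely at low signal, so Prkcb was also set beside genes of like level. Of the 1109 genes within 1 log2 unit of its mean level, 17 were as high or higher, which is 1.53%, and 90% of these genes lay between -0.25 and 0.33. These ranks describe this pair of arrays and are no test. No spot with an 8-fold difference lay within 300 µm of either Prkcb probe. The spots around these probes, dim ones included, had median differences of -0.14 over 114 spots and -0.049 over 73 spots. With dim probes included, the median over all genes was -0.059, a value over genes rather than spots. Whether the places of these probes played a part was not tested.

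The difference of Prkcb from its relatives does not depend on how the arrays were scaled to each other by a single constant. It exceeded the log2 difference of Prkca by 0.53, of Prkcd by 0.58, of Prkci by 0.63, of Prkcz by 0.71 and of Prkch by 0.93. B cells are rich in Prkcb, so their markers are given here. Of 6 genes, Cd79b, Ms4a1 and Ebf1 were measured, at -0.32, -1.31 and -1.15. Ms4a1 (35.8 and 7.08) and Ebf1 (41.3 and 19.5) were dim with GW4064 and give bounds. These bounds were counted only through the DMSO signal and could not have come out higher. The summed signal of the measured B cell markers was 359 with DMSO and 263 with GW4064. Cd79a and Pax5 were not well above background on either. The part of B cells in the Prkcb signal was not tested.

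Prkca encodes protein kinase C alpha, the most widely expressed conventional enzyme. Its probe A_55_P1961436 had a signal of 130 with DMSO and 137 with GW4064, and its probe A_66_P105791 had 143 and 162. The log2 differences were 0.018 and 0.11, with a software error of 0.213 and 0.212. The gene's mean of 0.065 was smaller than the scatter between copies of a probe at this signal, 0.0889 over 73 probes.

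Among the calcium-independent enzymes, Prkcd encodes protein kinase C delta, an enzyme of myeloid cells linked to the oxidative burst and to apoptosis. Probe A_51_P460734 had a signal of 38637 with DMSO and 40671 with GW4064, and probe A_55_P2008071 had 21506 and 22763. After scaling, the differences were 0.0084 and 0.016. The gap between the Prkcd probes was 0.00789, and both values were smaller than the median scatter of 0.0717 between copies of the 140 probes with a signal of 1000 or more. Prkcd was therefore nearly level between the arrays.

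Prkch encodes protein kinase C eta, an enzyme studied mostly in epithelia and lymphocytes. Its single probe, A_51_P355852, had a signal of 1319 with DMSO and 1092 with GW4064. The log2 difference was -0.34 with a software error of 0.204, or 1.26-fold lower. In all, 10.1% of genes had a difference as low or lower, which places Prkch inside the middle 90% of genes, from -0.65 to 0.53. Among 3032 genes of like level, 127 (4.19%) were as low or lower, and the middle 90% of these ran from -0.31 to 0.31. There was no spot with an 8-fold difference within 300 µm, and the 116 spots around it had a median difference of -0.014. With 1 probe, no second measurement of Prkch was at hand.

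The other genes of this class were not measured. Prkce, protein kinase C epsilon, is known from macrophage responses to bacterial lipopolysaccharide. Its only probe had signals of 9.73 and 11.9, and the raw spot stood at 42 over a local background of 14 on the DMSO array and at 42.5 over 25 on the GW4064 array. Prkcq, protein kinase C theta, is the enzyme of the T cell synapse, and its only probe had signals of 8.52 and 4.50. Each of these values lay below the lowest signal counted as well above background, 15.7 with DMSO and 15.1 with GW4064, so no fold is given. Both spots also lay near spots with 8-fold differences, 2 for Prkce and 3 for Prkcq. Of the 8 T cell markers, Cd3e, Lck and Cd28 were measured, with differences between 0.0080 and 0.18 and a summed signal of 1622 and 1765, and Cd3d, Cd3g, Cd247 and Trat1 were dim on both. A signal of this kind shows only that Prkce and Prkcq could not be measured with these probes.

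**Figure D2:**
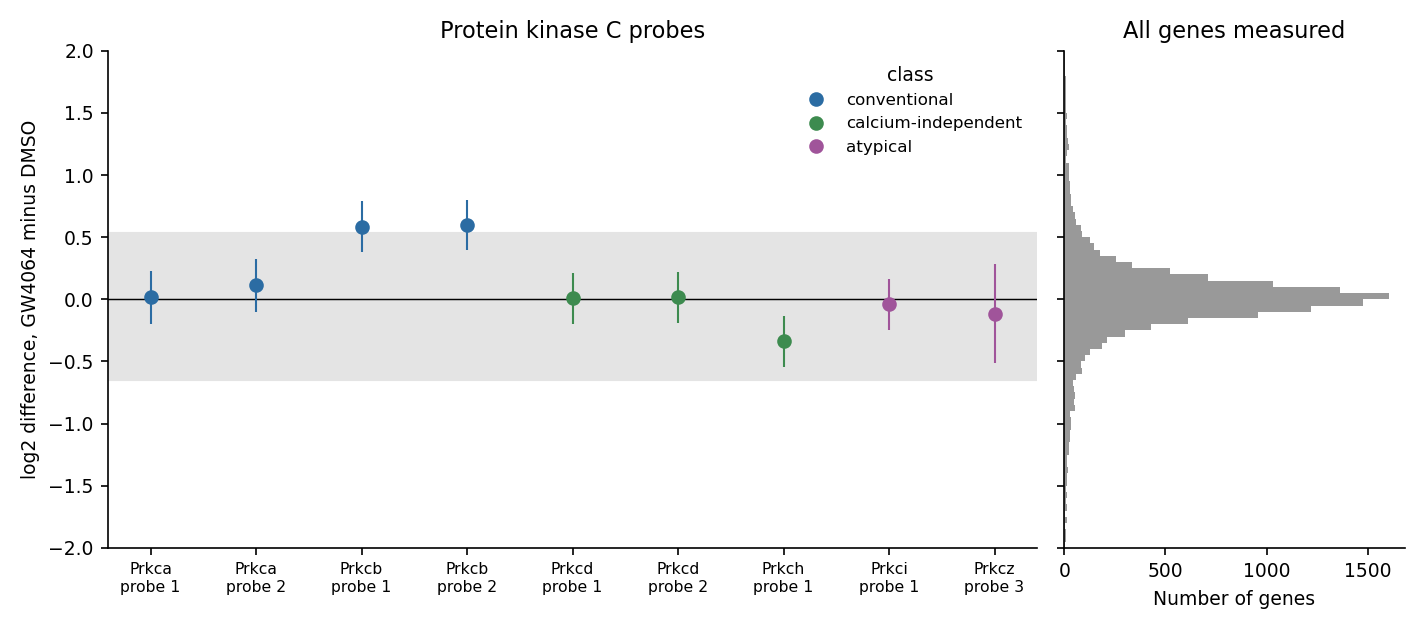
Left, log2 difference (GW4064 minus DMSO) of the 9 protein kinase C probes that were well above background, coloured by class, with the scanner software's error estimate as bars and the range from the 5th to the 95th percentile of all genes, -0.65 to 0.53, in grey. Right, the number of genes at each log2 difference, without 144 genes beyond the axis. Both Prkcb probes lie above the grey range and the other 7 probes lie inside it.

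The atypical enzymes act with the polarity proteins Par3 and Par6. Prkci, protein kinase C iota, had a single probe, A_55_P2064578, with a signal of 5164 with DMSO and 5256 with GW4064, and a difference of -0.040 after scaling. Prkcz, protein kinase C zeta, had 3 probes that target 1 transcript. Only A_55_P1987761 was well above background, with signals of 26.1 and 25.3, a difference of -0.12 and a software error of 0.397. The others had 3.61 and 8.83 (A_52_P284889) and 4.55 and 4.26 (A_52_P600822), none of them well above background, and 3 spots with 8-fold differences lay within 300 µm of the former. When all 3 probes were averaged without regard to background, the difference of Prkcz turned to 0.32, and with another background correction it was 0.085. No direction is given for Prkcz on this ground.

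The direction of the near-level members depended on scaling. The arrays can also be set equal on 8 spike-in probes, which detect RNA added in known amount, in place of the 75th percentile. This moved every log2 difference down by 0.191, so that Prkca became -0.13 and Prkcd -0.18, and the median of all genes became -0.18. Prkcb remained higher, at 0.40, and Prkch, at -0.53, remained lower. Relative to the median of all genes these members kept their places.

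**Figure D3:**
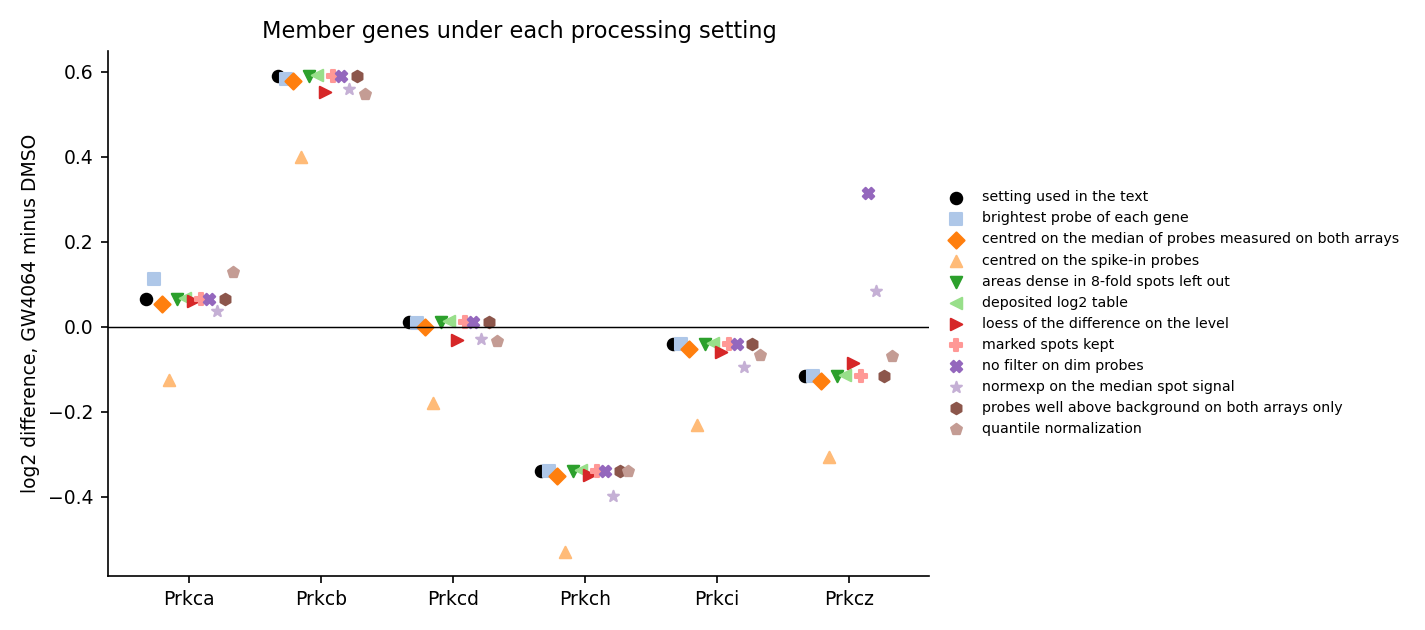
Log2 difference (GW4064 minus DMSO) of the 6 measured member genes under the setting used in the text (black circles) and 11 other ways of processing the arrays. Prkcb stays between 0.40 and 0.59 and Prkch between -0.53 and -0.34, while Prkca, Prkcd and Prkcz have values on both sides of 0.

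Genes that act around protein kinase C were then described in 8 lists of 78 genes, of which 63 were measured. Of these 30 were higher and 33 lower, with a median of -0.010, beside 0.0068 over all genes. Among them 12 reached 1.5-fold, 8 higher (12.7%, beside 4.39% of all genes) and 4 lower (6.35%, beside 5.56%). Of the 8 higher, Add2 and Plcd3 passed only through probes dim with DMSO, which could not have come out lower. With only probes well above background on both arrays, Add2 had no value and Plcd3 had 0.25. These lists were put together by function, and their values are a description of these arrays with no test.

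Phospholipases make the diacylglycerol that the conventional and calcium-independent enzymes bind, directly or, as for Pld1 and Pld2, by way of phosphatidic acid. Of 14 genes 10 were measured, 4 were higher and 6 lower, and the median was -0.097. Plcb1, which acts below G protein-coupled receptors, had the widest difference. Its probe A_55_P2173313 had a signal of 52.4 with DMSO and 260 with GW4064, 4.73-fold higher. Its other probe, for another transcript, was dim with DMSO and at least 1.497-fold higher with GW4064 (4.27 and 24.7). The second probe was counted only through its GW4064 signal and could not have come out lower, so it adds no support to the first. Signals were low, and the mean of 1.41 became 0.69 with another background correction (normexp). The offset of 50 that normexp adds narrows differences at low signal. Plcd3 was higher by 0.25 on the probe measured on both arrays and at least 2.05-fold higher on the other. Plch2 had 23.8 and 56.1 on 1 probe, with a difference of 1.17 that became 0.33 after normexp, 3 nearby spots with 8-fold differences and a second probe not well above background.

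Diacylglycerol kinases remove diacylglycerol. Of 10 genes 7 were measured, 5 were higher and 2 lower, and the median was 0.015. The exception in size was Dgkg, with 33.4 with DMSO and 18.6 with GW4064, a difference of -0.91 that became -0.32 after normexp. The other 6 lay between -0.081 and 0.069.

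Kinases and phosphatases that act on protein kinase C itself were close to level. All 7 were measured, 3 were higher and 4 lower, the range was -0.30 to 0.19, and none reached 1.5-fold. Pdpk1, which phosphorylates the activation loop of the family, had 0.027 over 3 probes, of which 1 had 6 nearby spots with 8-fold differences, and Mlst8, a subunit of the mTOR complexes, had -0.010. The other kinases of the wider family also held no gene that reached 1.5-fold. Of 7 genes 5 were measured, 2 were higher and 3 lower, with a range of -0.12 to 0.22 and a median of -0.040. Among these, Prkd3, a protein kinase D, had -0.097, with 2 of its 11 spots in areas dense in 8-fold spots.

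Scaffolds and partners hold the enzymes in place. Of 11 genes 9 were measured, 4 were higher and 5 lower, and the median was -0.025. Rack1, the scaffold known for binding activated protein kinase C beta, had signals of 150722 and 171650 and a difference of 0.12; it was picked out after its value was seen. Akap12 had 187 with DMSO and 93.1 with GW4064 (-1.07), and its other probe (3.45 and 3.29) was not well above background. Pick1, which binds protein kinase C alpha, had 103 and 234 (1.11). Pard3, the partner of the atypical enzymes, had -1.09 on 1 probe and -0.30 on another. Its remaining probes (15.8 and 10.6, and 4.89 and 4.63) were not well above background. The measured Akap12 and Pick1 probes and the first Pard3 probe had 3, 4 and 4 nearby spots with 8-fold differences. Without such areas Pard3 kept a difference of -0.30, and Akap12 and Pick1 had no value.

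Other proteins that bind diacylglycerol compete for the same lipid. Of 10 genes 8 were measured, 4 were higher and 4 lower, and the median was -0.023. Rasgrp3, an activator of Ras that protein kinase C can phosphorylate, had 637 with DMSO and 1170 with GW4064, with a difference of 0.81, 0.72 after normexp and no nearby spot with an 8-fold difference. Rasgrp1 had 192 and 92.7, a difference of -1.12, with 5 such spots nearby. Known substrates gave 11 measured genes of 13, 5 higher and 6 lower, with a median of -0.031. Add2, a cytoskeletal adducin, was the substrate past 1.5-fold, with 6.60 with DMSO, not above the background limit, and 44.1 with GW4064, at least 2.67-fold higher. After normexp its difference was 0.51. Ncf1, the oxidase subunit that protein kinase C phosphorylates in the oxidative burst, had 3839 and 2904 and a difference of -0.47, and was also picked out after its value was seen.

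The CARD-BCL10-MALT1 module carries the signal from protein kinase C to NF-κB. All 6 genes were measured, 3 were higher and 3 lower, and the median was 0.090, which became 0.29 without areas dense in 8-fold spots and -0.10 on the spike-in scale. Card10 had 57.9 and 93.1, a difference of 0.62 that became 0.15 after normexp. Further down the module, the differences were -0.18 for Bcl10 and -0.11 for Malt1, whose probe had 7 nearby spots with 8-fold differences. Card9, the form used by myeloid cells, had -0.12, and Card14 had 0.29 (35.8 and 45.8). Bcl10, Malt1, Card9 and Card14 were under 1.5-fold and were named outside the rule given under processing.

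**Figure D4:**
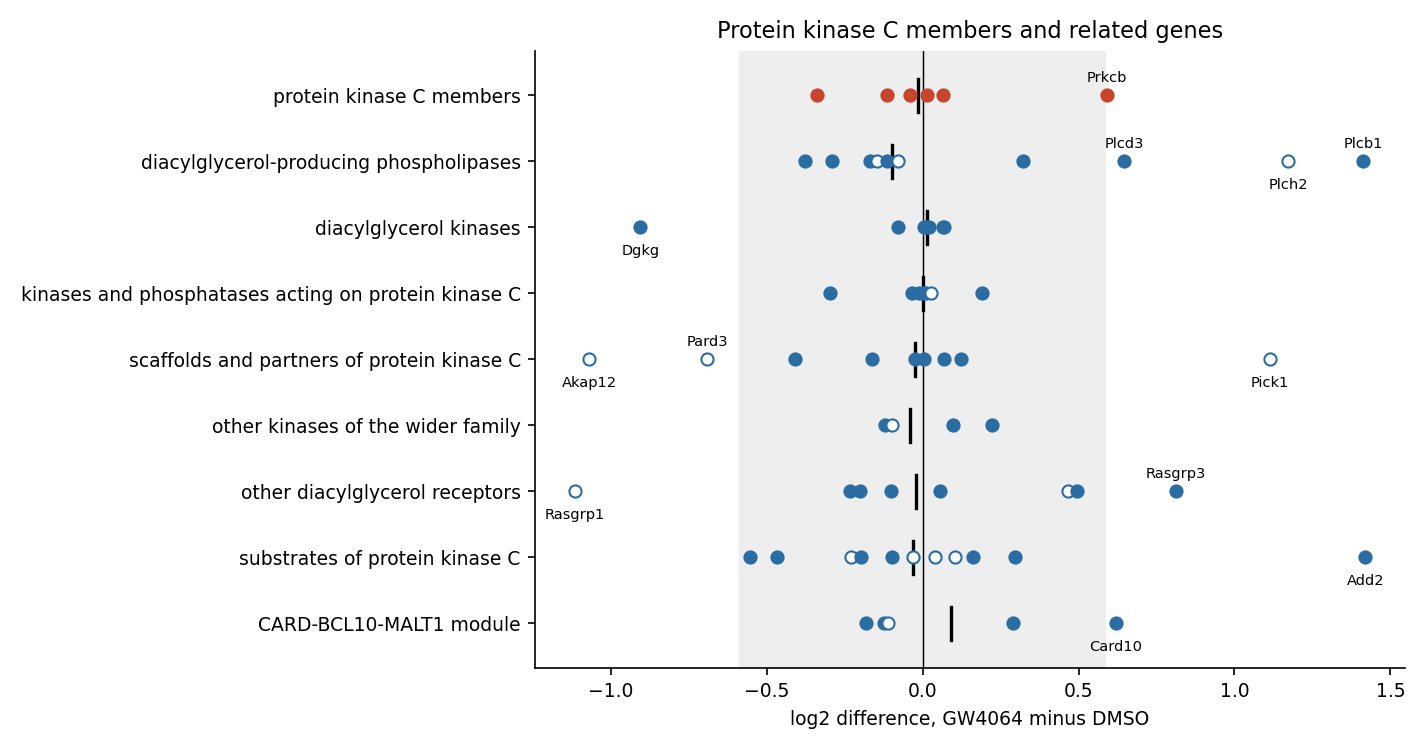
Log2 difference (GW4064 minus DMSO) of the 6 measured protein kinase C genes (red) and of 61 of the 63 measured genes in 8 related lists (blue), 1 point per gene, with the median of each whole list as a black bar and differences under 1.5-fold in grey. Open points are genes with a spot that had 2 or more other spots with 8-fold differences within 300 µm. Most genes lie in the grey range, and 11 related genes and Prkcb are named outside it.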

How the data were processed

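Total RNA of 2 samples was labelled with Cy3 and hybridised to 1 Agilent 44K array each. Feature Extraction 10.7.1.1, per the labels, gave the deposited intensity values (background-subtracted processed signals). A deposited log2 table of the same arrays had column medians of 0.0349 and -0.0507. Its difference between the arrays equalled the difference of the 75th percentile-scaled scanner values plus 0.0022 for 38801 probes printed once. The baseline of its levels stays unknown. It served as an alternative.

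Here, log2 processed signal minus each array's 75th percentile over non-control spots (signals of 1209 for DMSO and 1265 for GW4064) was used. Non-uniform spots (215 and 30) and outlier spots (195 and 179) were left out, and copies of a probe were averaged. No spot was saturated. Of 39200 probes, 22518 and 22936 were well above background. For a probe dim on 1 array, its own signal or the lowest well above background there, whichever was higher, gave a bound ("at least"). A gene was the mean of its measured probes. Symbols came from RefSeq GRCm38.p6 through the array's transcript accessions. Levels of different probes were set side by side in list sums, signal classes, genes of like level and the choice of brightest genes or probes. List sums used processed signals before scaling. Precision is limited by the number of arrays, 1 per group. Slide and scan were shared, so neither could be tested as a batch.

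Members and lists were chosen with earlier results of these data known. Every member was named, and in each related list every gene 1.5-fold or more higher or lower, otherwise its 2 brightest genes. Rack1, Ncf1, Bcl10, Malt1, Card9 and Card14 were named besides. Values of some of these genes are not reported here, but list counts and medians include them. With 2 arrays there is 1 difference per gene, so genes of like pattern were not sought. Alternatives were quantile, loess (span 0.3), median and spike-in scaling, normexp (limma 3.58.1, offset 50, on the median spot signal), other filters, and leaving out spots with 2 or more other 8-fold spots within 300 µm (16.5% of spots). Scripts used Python 3.11.15, numpy 2.4.6, pandas 2.3.3 and R 4.3.3, and were tested on simulated data.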

Additional observations from a re-analysis of the deposited data

How the results depend on the processing

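Over 12 settings including the one used, Prkcb had log2 differences of 0.40 to 0.59 and was higher in all 12, and Prkch (-0.53 to -0.34) and Prkci (-0.23 to -0.038) were lower in all 12. Keeping marked spots, leaving out areas dense in 8-fold spots and changing the filter could not alter Prkcb, Prkch or Prkci. Under these settings their values repeated those of the setting used and add no support. Prkca was higher in 11 and lower in 1, Prkcd was higher in 8 and lower in 4, and Prkcz was higher in 2 and lower in 10. On the spike-in scale the differences were -0.13 for Prkca, 0.40 for Prkcb, -0.18 for Prkcd, -0.53 for Prkch, -0.23 for Prkci and -0.31 for Prkcz, leaving 1 member higher and 5 lower. Prkcz was 0.32 without a filter on dim probes and 0.085 after normexp. The medians of the 8 related lists were -0.29 to -0.10 on the spike-in scale. With a threshold of 1.5-fold, 1 member passed, and at 4-fold none did.

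Over all genes, 276 were 2-fold or more higher and 367 lower, so 42.9% of these were higher. The counts were 211 and 522 (28.8% higher) on the spike-in scale, 72 and 64 (52.9%) after normexp, 698 and 767 of 20060 genes without a filter, 107 and 164 with probes well above background on both arrays, and 168 and 202 without areas dense in 8-fold spots. Normexp adds an offset of 50 to every signal, which by construction narrows log2 differences at low signal. Why the share of higher genes also changed was not tested. No paired analysis was possible because each group has 1 array, so there was no replicate to leave out. Signal over background limits Prkce, Prkcq and Prkcz.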
